A study of Homo sapiens with 8 samples.

Results

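The genes VHL, STAT3, CCNE1, PLK1 and HDAC3 encode proteins that the literature has described as clients of the chaperonin TRiC although none of them has a WD40 propeller, the fold best known among TRiC clients. The 5 genes were taken by name from the 60664 gene identifiers of the count tables, and their ribosome-protected fragments were followed in ribosomes recovered with TRiC or with its partner prefoldin (PFD). Selective ribosome profiling was carried out in U2OS cells, a human osteosarcoma line, with 8 libraries in 4 groups of 2 biological replicates. TRiC input and TRiC pulldown came from cells of genotype CCT4-Halo, in which the TRiC subunit CCT4 carried a HaloTag. PFD input and PFD pulldown came from cells of genotype PFDN4-Halo, in which the prefoldin subunit PFD4 (gene PFDN4) carried it. Each line was a single clone made by CRISPR–Cas9 integration, so a difference between lines and a difference between clones cannot be told apart. Cells of all 4 groups received cycloheximide at 100 µg per ml for 1 min to halt elongation and the crosslinker DSP at 2 mM for 30 min. Inputs were the total ribosomes pelleted from the lysate, and pulldowns were ribosomes recovered from pellets with anti-HaloTag beads.

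TRiC, also called CCT, is a cytosolic ATP-driven chaperonin of paired stacked rings that encloses a protein in its cavity for folding. PFD binds unfolded chains and can hand them to TRiC, and both can contact a chain that is still attached to the ribosome. TRiC clients are best known for actins, tubulins and WD40 propellers, and the proteins considered here have other folds and other cellular roles. VHL is the substrate receptor of an E3 ubiquitin ligase that marks the hypoxia-inducible factors for degradation, and it acts with the elongins B and C. STAT3 is a transcription factor that Janus kinases activate after cytokine binding. CCNE1 (cyclin E1) activates the kinase CDK2 at entry into S phase, PLK1 is the polo-like kinase that drives mitosis, and HDAC3 is the histone deacetylase of the NCOR1 corepressor complex.

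The stretch of each transcript that encodes the first residues of the nascent chain, which leave the ribosome before all others, is printed below with the start codon in capitals. The sequences are the 30 codons from the start of translation on the MANE Select transcript of GENCODE release 44 (genome build hg38), 5′ to 3′ on the coding strand. In VHL the stretch lies within 1 of 3 coding exons on the plus strand (chr3:10141848-10141937), and in STAT3 within 1 of 23 coding exons on the minus strand (chr17:42348427-42348516). In CCNE1 it is split over 2 of 11 coding exons on the plus strand (chr19:29812556-29812755). In PLK1 it lies within 1 of 10 coding exons on the plus strand (chr16:23678933-23679022), and in HDAC3 it is split over 2 of 15 coding exons on the minus strand (chr5:141636596-141636790).
VHL: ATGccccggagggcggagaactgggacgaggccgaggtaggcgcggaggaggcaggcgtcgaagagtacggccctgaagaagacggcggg
STAT3: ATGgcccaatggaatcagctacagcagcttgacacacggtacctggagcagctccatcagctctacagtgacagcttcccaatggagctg
CCNE1: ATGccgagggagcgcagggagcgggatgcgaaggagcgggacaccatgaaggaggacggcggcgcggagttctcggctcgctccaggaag
PLK1: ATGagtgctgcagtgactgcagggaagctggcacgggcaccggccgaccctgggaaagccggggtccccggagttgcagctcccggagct
HDAC3: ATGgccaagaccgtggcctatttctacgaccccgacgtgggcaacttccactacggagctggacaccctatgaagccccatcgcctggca

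The whole genes lie at chr3:10141778-10153667 (VHL, ENSG00000134086), chr17:42313324-42388540 (STAT3, ENSG00000168610), chr19:29811991-29824312 (CCNE1, ENSG00000105173), chr16:23677656-23690367 (PLK1, ENSG00000166851) and chr5:141620876-141636849 (HDAC3, ENSG00000171720). Their coding sequences differed in length and composition. VHL, with 213 codons, was at the 14.2 percentile of length among 14615 protein-coding genes tested in the TRiC line and, with 61.7% GC, at the 80.5 percentile of GC content. CCNE1 had 410 codons and 48.5% GC, HDAC3 428 codons and 52.2% GC, and PLK1 603 codons and 57.4% GC. STAT3 was the longest with 770 codons, at the 75.3 percentile, and had 51.2% GC. Exons of an opposite-strand gene covered 23.5% of the exon bases of VHL, 12.8% of those of PLK1 and 9.24% of those of HDAC3, and none of those of STAT3 and CCNE1. The strand setting behind the deposited counts is not given in the sources used here, so for VHL, PLK1 and HDAC3 a share of reads from the opposite-strand gene cannot be told apart.

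The libraries held between 9523128 counts (PFD pulldown replicate 1) and 32637658 counts (TRiC pulldown replicate 1). The edgeR common dispersion was 0.0153 over the 4 TRiC libraries, 0.331 over the 4 PFD libraries and 0.0570 over the 4 inputs of both lines. Between the replicates of a group the chi-square of their counts per degree of freedom was highest in PFD pulldown (88.0), against 33.5 in TRiC input, 15.2 in PFD input and 13.7 in TRiC pulldown. Of the mesenchymal markers, COL1A1 (45087 to 154571 counts), SPARC, VIM, FN1 and RUNX2 were abundant in all 8 libraries, whereas COL1A2 had 1 to 66 counts. Blood and epithelial markers were scarce, with CD3E and HBB at 0 counts in all libraries and EPCAM at 277 counts or fewer, and of the hepatocyte markers only SERPINA1 was abundant (1968 to 17978 counts). The tagged genes differed between the lines. CCT4 was lower in TRiC inputs than in PFD inputs by a log2 fold change of -1.40 (edgeR, adjusted p = 0.000121). PFDN4 was higher by 1.97 (edgeR, adjusted p = 0.00115). Other genes differed between the lines as well. All 8 TRiC subunit genes were called lower in TRiC input (median -0.56, from -1.40 to -0.23), with CCT4 the lowest. Of 6 prefoldin subunit genes the 1 called higher was PFDN4 itself, and 2 were called lower. Of 16341 genes tested, 22.6% were higher and 17.7% lower.

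All 5 client genes were well translated in both lines, with pooled coverage between 2.83 reads per codon (HDAC3 in PFD input) and 27.1 reads per codon (STAT3 in TRiC input), above the minimum of 0.5 reads per codon used in the methods. To compare genes of different length, counts were divided by the normalised library size over all 8 libraries and by coding length (normalised counts per 1000000, CPM, per coding kilobase). Over the inputs of both lines the clients ranked between the 70.9 percentile (VHL) and the 90.3 percentile (STAT3) of the coding genes tested. In TRiC input STAT3 had a level of 154 ± 6.38 (SD, n = 2), PLK1 of 121 ± 3.50, HDAC3 of 49.7 ± 0.460, VHL of 32.8 ± 2.00 and CCNE1 of 30.0 ± 0.411 CPM per coding kilobase. No neighbours in that order overlapped between libraries, and STAT3 and PLK1 stood well above the other 3.

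**Figure D1:**
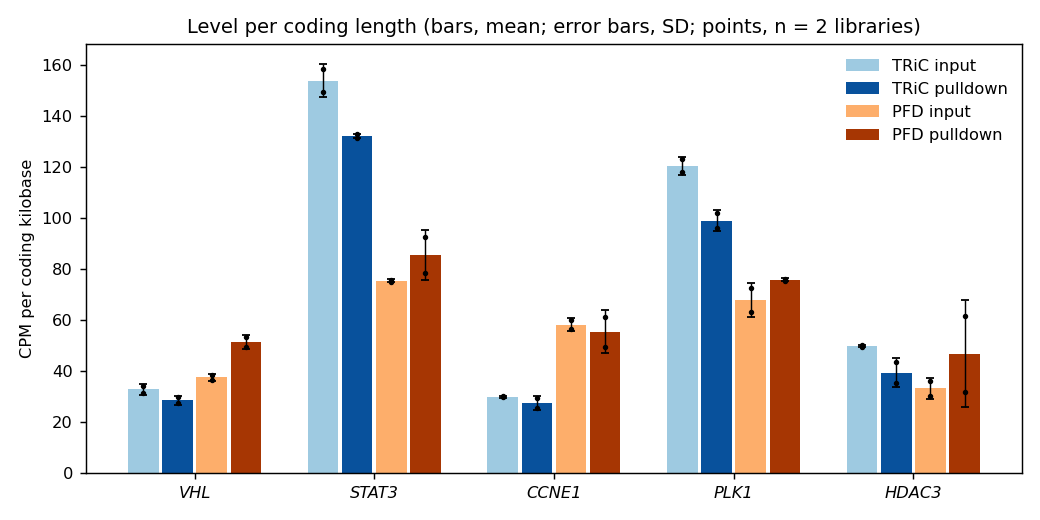
Level of the 5 client genes per coding length, in CPM per coding kilobase on a linear axis, with bars for the mean, error bars for the SD and points for the 2 libraries of each group. STAT3 and PLK1 are the highest in every group and are higher in the TRiC than in the PFD libraries, whereas CCNE1 is higher in the PFD libraries.

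In PFD input the order was different below the top 2 genes. STAT3 had a level of 75.4 ± 0.603 and PLK1 of 67.9 ± 6.65 CPM per coding kilobase (SD, n = 2). CCNE1 followed with 58.2 ± 2.57, ahead of VHL with 37.5 ± 1.43 and HDAC3 with 33.2 ± 4.07, and again no neighbours overlapped. In the pulldowns the lower part of the order was not resolved. VHL (27.4 and 29.8) and CCNE1 (25.4 and 29.4 CPM per coding kilobase) overlapped in TRiC pulldown, and the ranges of CCNE1, VHL and HDAC3 overlapped in PFD pulldown, where HDAC3 alone spanned 31.9 to 61.8.

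The inputs of both lines were compared with each other to see which clients differed in level on total ribosomes. STAT3, PLK1 and HDAC3 were higher and CCNE1 was lower in TRiC input, and VHL did not pass the test. These are 3 higher and 1 lower of 5, where 22.6% of 16341 genes tested were higher and 17.7% lower. Calls were more frequent among the 8919 genes with at least 100 counts in every input library, which include all 5 clients. Of these genes 2468 were higher and 2421 lower. STAT3, the cytokine-responsive transcription factor, had a 2.04-fold higher level in TRiC input (log2 fold change 1.03, SE 0.06, edgeR, adjusted p = 0.000346). PLK1, the mitotic kinase, was 1.78-fold higher (0.83, SE 0.09, edgeR, adjusted p = 0.00184), and HDAC3, the corepressor deacetylase, was 1.50-fold higher (0.59, SE 0.13, edgeR, adjusted p = 0.0181). CCNE1, the S-phase cyclin, was at 0.515-fold of its PFD input level (log2 fold change -0.96, SE 0.11, edgeR, adjusted p = 0.00203). For VHL the log2 fold change was -0.19 (SE 0.16, edgeR, adjusted p = 0.396). The median of all genes was 0.11 in this comparison, so the median of the clients (0.59) is to be read against that value. More mRNA and more ribosomes per mRNA cannot be told apart in these libraries, nor can line, clone, preparation and sequencing. The TRiC inputs are also the reference for the TRiC pulldown. The call of HDAC3 was lost when either TRiC input library was left out (log2 fold change 0.60 each time).

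The TRiC pulldown was then compared with TRiC input to ask whether ribosomes translating these clients were over-represented among TRiC-bound ribosomes. None was called higher. All 5 genes had lower values in the pulldown, and STAT3, PLK1 and HDAC3 fell by a margin that passed the test. The falls were small, to between 0.79 and 0.86 of the input level.
VHL had 22.1 and 20.2 CPM (here normalised within the line) in TRiC input replicates 1 and 2, and 17.6 and 19.3 CPM in the pulldowns. STAT3 had 349 and 370 CPM in input and 310 and 307 CPM in pulldown. CCNE1, with the smallest difference, had 37.6 and 36.9 CPM in input and 31.6 and 36.5 CPM in pulldown. In all 3 genes both pulldown libraries lay below both input libraries, for CCNE1 by a small gap. PLK1 had 216 and 225 CPM in input and 186 and 176 CPM in pulldown. HDAC3 had 64.9 and 64.0 CPM in input and 56.2 and 45.9 CPM in pulldown. For these genes too the groups did not overlap. Non-overlap in this direction was common, however, as 31.2% of all genes tested had both pulldowns below both inputs and 29.3% had both above.

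**Figure D2:**
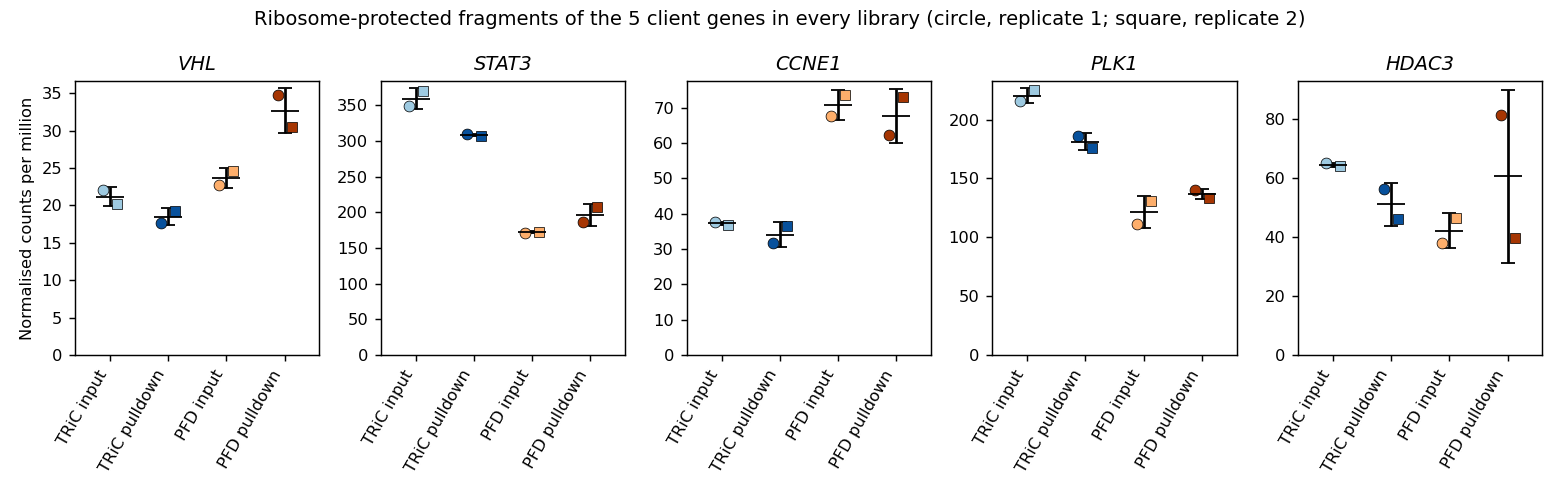
Normalised CPM of each client gene in all 8 libraries, on linear axes that start at 0 and differ between panels (circles, replicate 1; squares, replicate 2; normalised within each line). In the TRiC line both pulldowns of every gene lie below both inputs, and in the PFD line VHL, STAT3 and PLK1 lie above while CCNE1 and HDAC3 overlap.

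As fold changes, HDAC3 fell most, from 64.5 ± 0.608 to 51.1 ± 7.30 CPM (SD, n = 2; log2 fold change -0.33, SE 0.11, edgeR, adjusted p = 0.0343). PLK1 fell from 220.4 ± 6.36 to 181 ± 7.16 CPM (-0.28, SE 0.08, edgeR, adjusted p = 0.0136), and STAT3 from 359 ± 14.8 to 309 ± 1.98 CPM (-0.22, SE 0.07, edgeR, adjusted p = 0.0351). The ligase subunit VHL (21.2 ± 1.30 to 18.5 ± 1.14 CPM) had a log2 fold change of -0.20 (SE 0.14, edgeR, adjusted p = 0.339). The cyclin CCNE1 (37.2 ± 0.517 to 34.0 ± 3.49 CPM) had one of -0.13 (SE 0.11, edgeR, adjusted p = 0.456). With 1 library left out the value of CCNE1 ran from -0.23 (without TRiC pulldown replicate 2) to -0.04 (without TRiC pulldown replicate 1), and that of VHL from -0.27 (without TRiC input replicate 2) to -0.13 (without TRiC input replicate 1). Thus 0 of 5 clients were called higher and 3 of 5 lower, where 8.64% of 17934 genes tested were higher and 10.6% lower. With the library totals as the scale, 1801 genes were called higher and 1265 lower in place of 1550 and 1894, so the direction of calls over all genes depended on the scaling. Among genes with at least 100 counts in every library, which include all 5 clients, 15.2% were called higher and 12.7% lower.

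The clients spread over the lower middle of the distribution of all genes. HDAC3 was at the 17.9 percentile of log2 fold changes, PLK1 at the 21.7, STAT3 at the 27.8, VHL at the 29.9 and CCNE1 at the 36.9 percentile. Their median was -0.22, beside a median of -0.003 over all genes tested. Between the same-numbered libraries the log2 ratio of pulldown to input was below 0 for every client in both pairs, from -0.17 (STAT3) to -0.32 (VHL) in replicate 1 and from -0.01 (CCNE1) to -0.48 (HDAC3) in replicate 2. All 5 values were also below 0 under each of the 11 alternative settings, but the calls were not: none of the 3 was made with library totals, with cyclic loess, with all 8 libraries in one fit, or without TRiC input replicate 1 or replicate 2. The call of HDAC3 was also lost without TRiC pulldown replicate 2 (log2 fold change -0.19) and with DESeq2 (-0.32), and that of STAT3 with at least 100 counts in every library (-0.16).

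**Figure D3:**
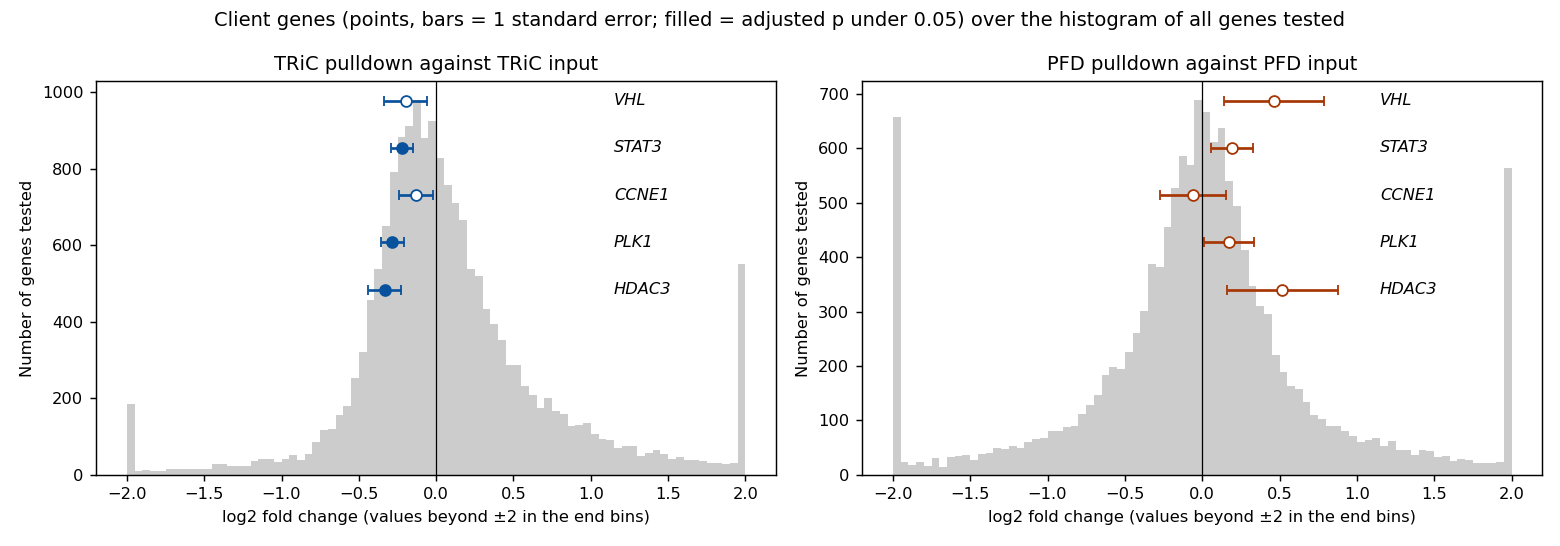
Histograms of the log2 fold changes of all genes tested (left, TRiC pulldown over input; right, PFD pulldown over input; values beyond ±2 in the end bins), with the 5 clients as points and bars of 1 standard error. The clients lie between -0.33 and -0.13 in the TRiC line, with 3 filled points that passed the test, and between -0.06 and 0.52 in the PFD line, where none did.

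In the PFD line the same comparison gave higher values for 4 of 5 clients and no call. VHL had 22.8 and 24.6 CPM in PFD input and 34.8 and 30.5 CPM in PFD pulldown. STAT3 had 171 and 173 CPM in input and 186 and 207 CPM in pulldown, and PLK1 had 112 and 131 CPM in input and 140 and 134 CPM in pulldown. In these 3 genes both pulldowns lay above both inputs, as in 18.3% of all genes tested. CCNE1 had 67.6 and 73.7 CPM in input and 62.3 and 73.1 CPM in pulldown, and the groups overlapped. HDAC3 had 38.0 and 46.3 CPM in input but 81.3 and 39.7 CPM in pulldown, so that its replicates differed by more than the groups. Replicate 1 of the pulldown alone was high.

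The log2 fold change over PFD input was 0.52 for HDAC3 (SE 0.36, edgeR, adjusted p = 0.873) and 0.46 for VHL (SE 0.32, edgeR, adjusted p = 0.873). It was 0.19 for STAT3 (SE 0.14, edgeR, adjusted p = 0.876), 0.17 for PLK1 (SE 0.16, edgeR, adjusted p = 0.929) and -0.06 for CCNE1 (SE 0.21, edgeR, adjusted p = 0.992). In this comparison 0 of 5 clients were called, and of 14111 genes tested 0.0496% were called higher and 0.191% lower (34 in all; 978 at an unadjusted p under 0.05, 533 with DESeq2 and 134 with the replicate number as a block). The 1.38-fold difference of VHL and the 1.43-fold difference of HDAC3 did not pass the test. HDAC3 rested on single libraries: its log2 fold change was 0.95 without PFD pulldown replicate 2 and -0.09 without PFD pulldown replicate 1. CCNE1 also changed sign without PFD pulldown replicate 1 (0.05). The value of PLK1 was 0.05 without PFD input replicate 1, and that of STAT3 was 0.11 without PFD pulldown replicate 2.

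Whether TRiC and PFD pulldowns differed in their recovery of the clients was tested as the difference between both log2 fold changes. The difference (TRiC minus PFD) was -0.82 for HDAC3 (SE 0.40), -0.65 for VHL (SE 0.30), -0.45 for PLK1 (SE 0.14), -0.40 for STAT3 (SE 0.14) and -0.06 for CCNE1 (SE 0.23). None passed the test, with edgeR adjusted p-values of 0.375 for HDAC3, 0.353 for VHL, 0.240 for PLK1, 0.261 for STAT3 and 0.976 for CCNE1. Over all genes 0.0212% of 18855 were called higher and 0.0159% lower (7 in all; 2791 at an unadjusted p under 0.05, 985 with DESeq2 and 0 with the replicate number as a block). Of the clients, PLK1 and STAT3 had an unadjusted edgeR p of 0.0140 and 0.0194. STAT3 was called with DESeq2 (-0.41), which called 985 genes in all, and had -0.51 without PFD pulldown replicate 1. HDAC3 had -1.22 without PFD pulldown replicate 2, where the median of all genes was 0.24, and -0.28 without PFD pulldown replicate 1. The median difference was -0.45 for the clients and -0.01 for all genes, and the value of CCNE1 was above 0 with library totals (0.0097).

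**Figure D4:**
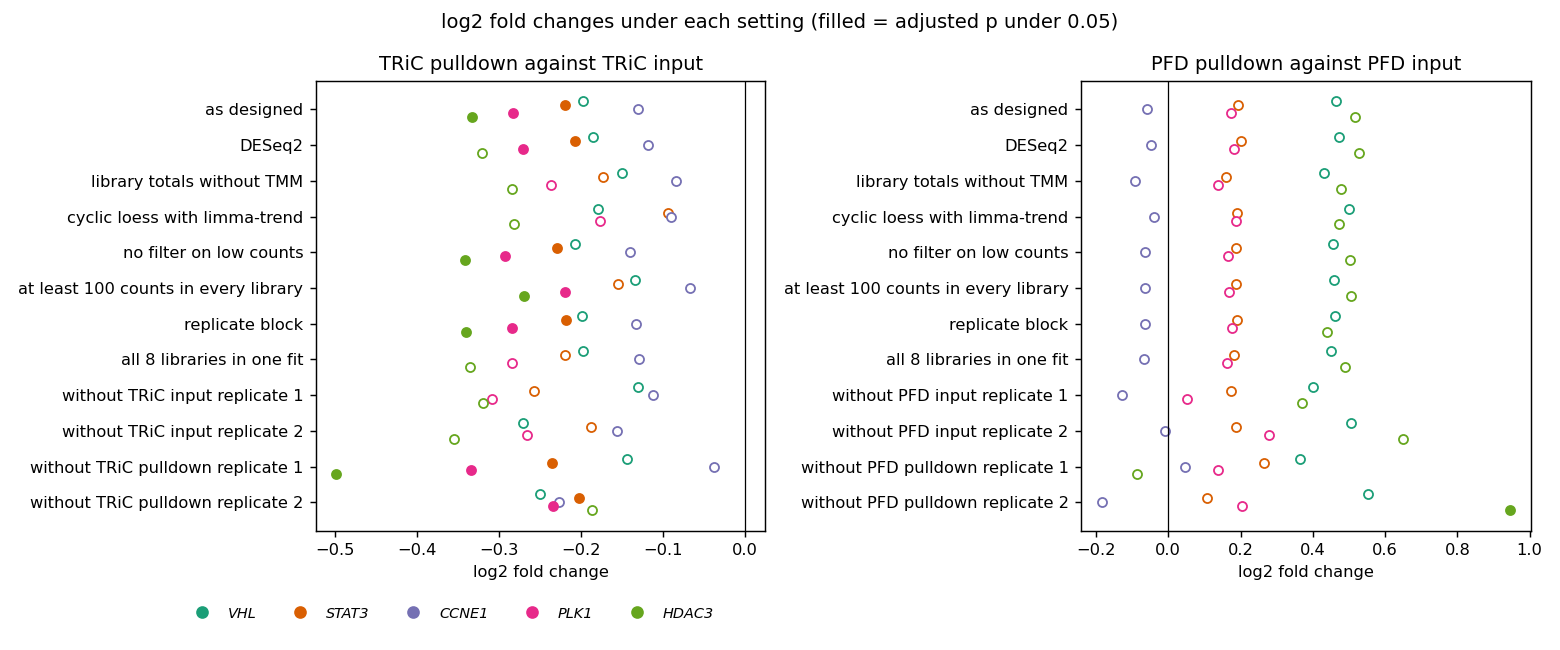
log2 fold changes of the 5 clients in the TRiC and PFD pulldowns under each processing setting, with filled points for adjusted p under 0.05. In the TRiC line every point is below 0 and the filled points change with the setting, and in the PFD line only HDAC3 without PFD pulldown replicate 2 is filled.

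Genes of the same pathways were followed beside the clients, in lists of 11, 16, 17, 16 and 13 genes. From these lists together 16 genes were called in TRiC pulldown, a share near that of all genes, where 8.64% were called higher and 10.6% lower. Among genes with at least 100 counts in every library 15.2% were called higher and 12.7% lower. The lists were also chosen with earlier results of these data known. The calls are therefore given as values of single genes and not as results about the pathways. ELOB, JAK2, CDKN1A, AURKB and HDAC8 were called in every fit with 1 library left out, and none of the 16 was called with all 8 libraries in one fit. The VHL ligase and HIF pathway had 4 of 11 members lower and 0 higher in TRiC pulldown, where 10.6% of all genes were lower and 8.64% higher, with a median of -0.20 (-0.30 without TRiC input replicate 1 and -0.12 without TRiC input replicate 2). ELOB (elongin B), which with elongin C joins VHL to the ligase scaffold, fell from 191 ± 3.26 to 138 ± 11.9 CPM (SD, n = 2; log2 fold change -0.47, SE 0.08, edgeR, adjusted p = 0.000842). RBX1, the RING subunit of cullin ligases, fell from 101 ± 1.52 to 77.1 ± 7.83 CPM (-0.38, SE 0.09, edgeR, adjusted p = 0.00742). The prolyl hydroxylase EGLN1 (-0.47, SE 0.15, edgeR, adjusted p = 0.0337) and the HIF partner ARNT (-0.29, SE 0.09, edgeR, adjusted p = 0.0310) fell as well, but both calls were lost when TRiC input replicate 1, TRiC input replicate 2 or TRiC pulldown replicate 2 was left out, and that of RBX1 without TRiC input replicate 1. ELOC (elongin C) had -0.16 (SE 0.11, edgeR, adjusted p = 0.345; -0.26 without TRiC input replicate 1 and -0.06 without TRiC input replicate 2). So of the 2 elongins that bind as a pair, ELOB was called and ELOC was not, and a difference between them was not tested.

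Among 16 STAT family and JAK–STAT3 signalling genes, 2 rose in TRiC pulldown and 0 fell, where 8.64% of all genes were higher and 10.6% lower. The median was -0.06 (-0.01 without TRiC pulldown replicate 2 and 0.01 with cyclic loess). Both risers are Janus kinases, the upstream activators of STAT3, a role that follows from how the list was drawn and is not a result. With at least 100 counts in every library 2 of 14 listed genes were higher, where 15.2% of all genes were. JAK2 rose from 8.96 ± 0.124 to 14.7 ± 1.64 CPM (log2 fold change 0.71, SE 0.17, edgeR, adjusted p = 0.00759), and TYK2 from 50.0 ± 8.02 to 69.0 ± 2.97 CPM (0.47, SE 0.11, edgeR, adjusted p = 0.00641). The call of TYK2 was lost without TRiC input replicate 2 (0.30). JAK1, the other broadly expressed member of that kinase family, had -0.10 (SE 0.08, edgeR, adjusted p = 0.425; -0.18 without TRiC pulldown replicate 1 and -0.02 without TRiC pulldown replicate 2).

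Of 17 genes around cyclin E and CDK2, 5 fell and 0 rose, where 10.6% of all genes were lower and 8.64% higher. The median was -0.18, and 1 gene was called when either TRiC input library was left out. The CDK inhibitor CDKN1A (p21) fell from 138 ± 12.5 to 99.1 ± 2.63 CPM (log2 fold change -0.47, SE 0.09, edgeR, adjusted p = 0.00121). Cyclins fell as well, namely CCND1 (-0.31, SE 0.07, edgeR, adjusted p = 0.00612), CCNA2 (-0.25, SE 0.07, edgeR, adjusted p = 0.0220) and CCND3 (-0.37, SE 0.12, edgeR, adjusted p = 0.0325), and so did the inhibitor CDKN1B (p27; -0.27, SE 0.08, edgeR, adjusted p = 0.0330). The calls of the 3 cyclins and of CDKN1B were lost without TRiC input replicate 1 and without TRiC input replicate 2, and those of CCND3 and CDKN1B also without TRiC pulldown replicate 2. The direct partner CDK2 had -0.18 (SE 0.09, edgeR, adjusted p = 0.179) and the paralogue CCNE2 had -0.19 (SE 0.15, edgeR, adjusted p = 0.406), with opposite-strand exons over 37.1% of its exon bases. The value of CCNE2 ran from -0.38 without TRiC pulldown replicate 2 to -0.02 without TRiC pulldown replicate 1, and that of CDK2 was -0.11 without TRiC pulldown replicate 2.

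The polo-like kinases and the PLK1 pathway had 2 of 16 members lower and 0 higher, where 10.6% of all genes were lower and 8.64% higher. The median was -0.11 (-0.04 without TRiC input replicate 2, -0.05 without TRiC pulldown replicate 1 and -0.007 with cyclic loess). Both called genes encode mitotic regulators, a role that follows from how the list was drawn and is not a result. The kinase AURKB fell from 119 ± 4.26 to 86.4 ± 11.0 CPM (log2 fold change -0.46, SE 0.09, edgeR, adjusted p = 0.00251). The kinesin KIF20A, which recruits PLK1 to the central spindle, fell from 543 ± 16.0 to 442 ± 6.37 CPM (-0.30, SE 0.07, edgeR, adjusted p = 0.00497), a call lost without TRiC input replicate 2 and with cyclic loess (-0.16). The centriole kinase PLK4 had 0.27 (SE 0.11, edgeR, adjusted p = 0.110), and BORA, which helps Aurora A to activate PLK1, had -0.11 (SE 0.12, edgeR, adjusted p = 0.603; -0.17 without TRiC input replicate 1 and -0.04 without TRiC input replicate 2).

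Of 13 class I deacetylase and corepressor genes, 2 rose and 1 fell, where 8.64% of all genes were higher and 10.6% lower. The median was -0.004 (0.02 without TRiC input replicate 2, 0.05 without TRiC pulldown replicate 2, 0.04 with library totals and 0.11 with cyclic loess). HDAC8, the class I deacetylase that acts without a corepressor complex, rose from 6.89 ± 0.106 to 14.4 ± 2.45 CPM (log2 fold change 1.06, SE 0.19, edgeR, adjusted p = 0.000905). NCOR1, the large scaffold that binds and activates HDAC3, rose from 82.0 ± 1.00 to 105 ± 5.03 CPM (0.35, SE 0.09, edgeR, adjusted p = 0.00791), a call lost without TRiC input replicate 1 and without TRiC input replicate 2. The NuRD subunit MTA2 fell (-0.23, SE 0.07, edgeR, adjusted p = 0.0352), a call lost without either TRiC input, without TRiC pulldown replicate 2, with library totals (-0.19) and with cyclic loess (-0.12). The related deacetylases HDAC1 (-0.20, SE 0.08, edgeR, adjusted p = 0.0946) and HDAC2 (-0.13, SE 0.08, edgeR, adjusted p = 0.264) had values below 0, as HDAC3 did. HDAC3 was thus called lower in TRiC pulldown and its scaffold NCOR1 higher, but both calls depended on the setting. A difference between these 2 genes was not tested.

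**Figure D5:**
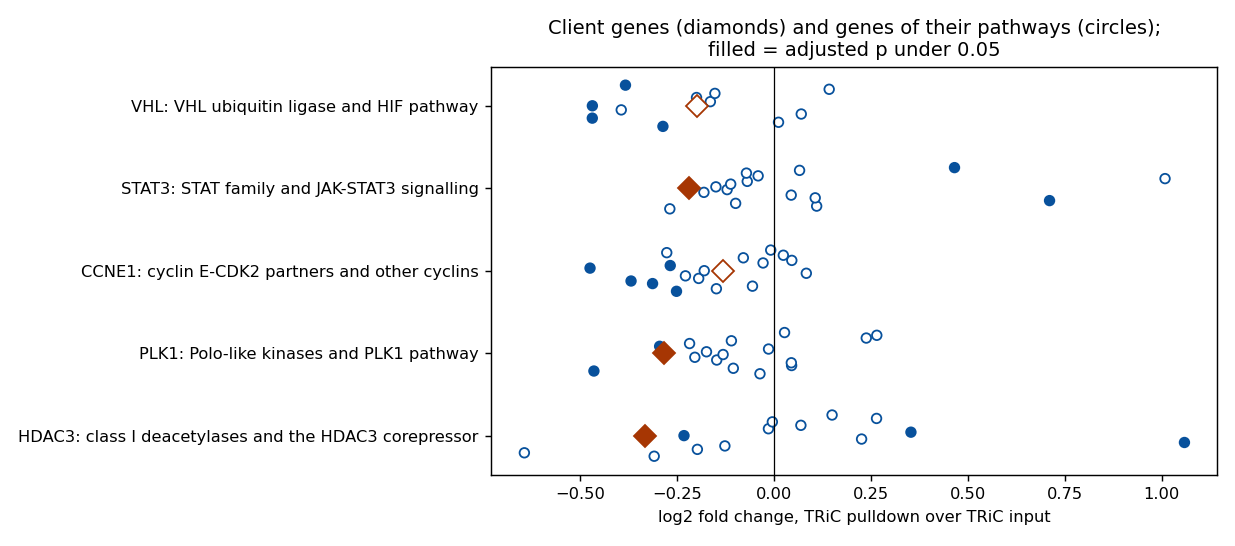
log2 fold change in TRiC pulldown over TRiC input of the 5 clients (diamonds) and of the genes in their pathways (circles), 1 row per client, filled where adjusted p was under 0.05. The filled circles lie below 0 in the VHL, CCNE1 and PLK1 rows (4, 5 and 2 genes), above 0 in the STAT3 row (2 genes), and on both sides in the HDAC3 row.

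In PFD pulldown 0 of these pathway genes were called, and all but 1 gene of the STAT3 pathway could be tested. The medians were -0.13 for the VHL, -0.02 for the STAT3, -0.07 for the CCNE1, 0.02 for the PLK1 and 0.16 for the HDAC3 pathway. Some pathway genes were called without PFD pulldown replicate 2, a fit with a single pulldown library. Calls were then far more frequent over all genes too, so these are not read as results about the pathways. Without PFD pulldown replicate 1 the median of the STAT3 pathway was 0.13 and that of the CCNE1 pathway -0.02, and without PFD pulldown replicate 2 that of the CCNE1 pathway was -0.24. Without PFD input replicate 1 the VHL pathway had -0.06, the STAT3 pathway 0.01, the PLK1 pathway 0.09 and the HDAC3 pathway 0.03. The PLK1 pathway had -0.03 without PFD input replicate 2 and -0.01 with library totals, and the HDAC3 pathway had 0.07 with cyclic loess.

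The clients were also set beside the classical clients of TRiC. In TRiC pulldown 8 of 14 actins and tubulins were lower and 0 higher (median -0.33), and 9 of 16 single-propeller WD40 genes were lower and 1 higher (median -0.24), where 10.6% of all genes were lower and 8.64% higher. With all 8 libraries in one fit 0 were called in either list. Without TRiC input replicate 1 there were 5 actins and tubulins and 4 WD40 genes lower, without TRiC pulldown replicate 1 there were 12 actins and tubulins lower, and without TRiC pulldown replicate 2 the actins and tubulins had a median of -0.21, with 1 gene above 0, and 6 WD40 genes were lower. Without TRiC input replicate 2, 6 WD40 genes were lower. The gene that rose was FZR1 (0.27), a call lost without TRiC input replicate 1, TRiC input replicate 2 or TRiC pulldown replicate 1. The 5 non-propeller clients had 3 lower, 0 higher and a median of -0.22. Lower values were also seen in the genes of the chaperones. Of 8 TRiC subunit genes 3 were lower (median -0.20), and of 6 prefoldin subunit genes 3 were lower (median -0.31). None of either was higher, and with all 8 libraries in one fit 0 of them were called. With cyclic loess 0 TRiC subunit genes (median -0.06) and 2 prefoldin subunit genes (median -0.26) were lower. With library totals 1 TRiC subunit gene (median -0.16) and 2 prefoldin subunit genes (median -0.26) were lower. In PFD pulldown the medians were 0.15 for actins and tubulins and 0.06 for the WD40 genes, with TUBA1B lower (-1.06, SE 0.12, edgeR, adjusted p = 0.0218; an opposite-strand gene overlaps it) as the only call in either list, and 0.19 for the non-propeller clients. Without PFD pulldown replicate 1 these medians were -0.07 for actins and tubulins, -0.03 for the WD40 genes and 0.14 for the non-propeller clients. Without PFD input replicate 2 they were 0.05, 0.14 and 0.28, and the WD40 genes had 0.13 without PFD pulldown replicate 2. Every actin and tubulin gene had a value below 0 in TRiC pulldown with library totals and cyclic loess too, where medians were -0.28 and -0.22. The paper instead compared pulldown with input at each codon. By that measure it reported actin and tubulins as bound by both chaperones, and TRiC subunits as enriched among the shared substrates. Counts summed over a whole gene are a different measure, and the lower values here do not test that result. Such counts do not show at which codons a chaperone was bound. A gain over part of a coding sequence was not analysed here.

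Across all 8 libraries the 5 clients did not all share a pattern. The genes most like each client were taken as those with the highest Pearson correlation of log2 CPM over the 8 libraries among 11266 genes with a mean of at least 100 counts, given as a description because the libraries fall into 2 lines. For STAT3 they were HAPLN1 (r = 0.998), PDK2 (0.995) and COPB2 (0.995), and for PLK1 they were TMEM14A (0.995), ACTBP2 (0.992) and UQCRC1 (0.992). ACTBP2 is a pseudogene of ACTB, with which it can share reads. For CCNE1 they were TWNK (0.998), BPNT2 (0.996) and NOP56 (0.995), for VHL they were LTV1 (0.988), HARS1 (0.986) and HMGN4 (0.982), and for HDAC3 they were ALKBH5 (0.984), SLC41A3 (0.982) and EPHB2 (0.976). No client was among the 3 genes kept for another client, which was likely in advance with 11266 genes compared. Between clients, STAT3 and PLK1 were the most alike (r = 0.97), and VHL and CCNE1 had r = 0.79. STAT3 and CCNE1 were the least alike (r = -0.91) over the 8 libraries.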

How the data were processed

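Ribosome-protected fragments of 8 libraries were analysed as counts per gene. The deposited counts are whole numbers without normalization, made by the authors with UMI-tools, Bowtie2 2.4.2 (removal of non-coding RNA reads) and STAR 2.7.10a (hg38, at most 2 mismatches, unique alignments, gene counting), as named in the methods and the submitters' processing notes. The annotation release and the strand column are not given in the sources used here. Of 60664 identifiers, 60463 matched GENCODE release 44, which gave names, positions and coding lengths.

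Pulldown and input were compared within each line by edgeR's quasi-likelihood test (version 4.0.16, R 4.3.3) after filterByExpr and TMM scaling, without a replicate block and with Benjamini-Hochberg adjustment over all genes tested and a threshold of 0.05. The inputs were compared in a fit of 4 libraries, and the difference between pulldowns as an interaction over all 8. SE is the absolute log2 fold change divided by the square root of the F statistic. Percentiles of length, GC content and level were taken over coding genes. Correlations used log2 of CPM plus 0.5. Scripts were tested on simulated data.

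The client genes, the pathway lists and the rule for named genes were chosen with earlier results of these data known. The rule named all 5 clients, at most 4 called genes per pathway list by smallest adjusted p, and the closest partners of each client, some of which are not reported here. CDKN1B, FZR1 and TUBA1B fall outside it, as do CCT4 and PFDN4, and were named after their values were seen. Alternatives were DESeq2 1.42.0, scaling by library totals alone, limma-trend after cyclic loess (limma 3.58.1), no filter, a minimum of 100 counts in every library, a replicate block, a single fit of all 8 libraries, and omission of each library in turn. The libraries are described as biological replicates, and with 2 per group their spread, not the counting error, limits the precision.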

Additional observations from a re-analysis of the deposited data

How the results depend on the processing

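In TRiC pulldown against TRiC input, all 5 clients had values below 0 under every alternative. The calls of STAT3, PLK1 and HDAC3 were lost with library totals (-0.17, -0.24 and -0.29), with cyclic loess (-0.093, -0.18 and -0.28) and with all 8 libraries in one fit (-0.22, -0.28 and -0.34; 31 genes called in all), leaving 0 clients called. HDAC3 was also lost with DESeq2 (-0.32) and STAT3 with at least 100 counts in every library (-0.16). With 1 library left out, values ranged from -0.26 to -0.19 for STAT3, -0.33 to -0.23 for PLK1 and -0.50 to -0.19 for HDAC3, with 0 to 3 clients and 1698 to 4698 genes called. In PFD pulldown against PFD input, 533 genes were called with DESeq2, 57 with cyclic loess, 152 without a filter and 83 with all 8 libraries in one fit. With 1 library left out there were 71 to 2434 genes and 0 to 1 clients called, and CCNE1 ranged from -0.18 to 0.047 and HDAC3 from -0.086 to 0.95. For the difference between pulldowns, DESeq2 called 985 genes and 1 client (STAT3, -0.41), and 4 genes were called with cyclic loess, 511 without a filter and 14 with at least 100 counts in every library. CCNE1 was above 0 with library totals (0.0097) and with at least 100 counts (0.0021). With 1 library left out, values ranged from -0.51 to -0.26 for STAT3, -0.21 to 0.12 for CCNE1 and -1.22 to -0.28 for HDAC3, with 0 to 3931 genes and 0 to 1 clients called. The median of all genes moved by 0.25 without PFD pulldown replicate 2. Between inputs, HDAC3 was lost with all 8 libraries in one fit (0.58; 3858 genes called) and ranged from 0.47 to 0.74 with 1 library left out, with 3 to 4 clients and 3626 to 11084 genes called. Of the 16 pathway genes called in TRiC pulldown, 0 were called with all 8 libraries in one fit, 9 with cyclic loess, 10 with library totals, 12 with at least 100 counts, 14 with DESeq2 and 6 to 16 with 1 library left out, and none changed sign. With cyclic loess JAK1 (0.00027) was above 0. Input and pulldown were taken from ribosome pellets, but whether the same number marks the same pellet is not given in the sources used here, and the deviations of same-numbered libraries correlated by 0.0798 (TRiC) and -0.00432 (PFD). With the replicate block no client gained or lost a call, and 4689 genes were called in TRiC pulldown, 134 in PFD pulldown, 0 for the difference (2832 at an unadjusted p under 0.05) and 5776 between inputs. The causes of these shifts were not tested.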
